A study of Homo sapiens with 24 samples.

Results

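The 49 genes described here encode the machinery that copies DNA in S phase. They are a list of replication origin, helicase, polymerase and nucleotide supply genes, with the cyclins, E2F1 and fork protection factors that act beside them. The list was chosen with earlier results of these data known, and it does not hold every gene of these families. Each symbol matched 1 of the 60605 genes counted. All 49 passed the filter on low counts, which left 15869 genes to test. The counts come from poly(A)-selected RNA of SBC-3, a human cell line that the labels give as small cell lung cancer and wild type. Cells received a small interfering RNA (siRNA) or an antisense oligonucleotide (ASO) at 10 nM and were collected after 72 h. There are 24 libraries in 8 groups of 3: siSFPQ-2 and siSFPQ-3 against SFPQ, siNONO-3 and siNONO-4 against NONO, and their control siCtrl; then ASO-NEAT1-1047 and ASO-NEAT1-1473 against NEAT1, and their control ASO-Ctrl. SFPQ and NONO are RNA-binding proteins of paraspeckles, nuclear bodies built on the long noncoding RNA NEAT1, and the study asked how SFPQ acts on microRNA precursors. All groups are transient transfections of this single line. The labels do not say whether separate cultures were used for the replicates, so every p-value here rests on library-to-library spread that could be technical.

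Replication begins at origins bound by the origin recognition complex, ORC. In G1, CDC6 and CDT1 load the MCM helicase onto origins, which licenses them. At the start of S phase, cyclin E with CDK2 and the CDC7-DBF4 kinase activate the helicase by adding CDC45 and the GINS complex, and polymerase alpha with primase lays down primers that polymerases delta and epsilon extend. Ribonucleotide reductase, TYMS and TK1 supply deoxynucleotides. Many of these genes are transcribed under E2F factors as cells pass from G1 into S, so their RNA is high in cycling cultures.

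The libraries were checked before the genes were compared. SFPQ RNA fell by 2.57 on the log2 scale with siSFPQ-2 and by 2.46 with siSFPQ-3, and NONO RNA fell with siNONO-3 (-2.53) and siNONO-4 (-2.51), each against siCtrl (95% intervals -2.80 to -2.33, -2.69 to -2.23, -2.71 to -2.34 and -2.70 to -2.33). NEAT1 did not pass the test with either ASO (log2 fold change 0.003 and -0.53, adjusted p = 1 each), and the groups are named below as the libraries labelled ASO-NEAT1. Of the small cell lung cancer markers, INSM1 had no read in any library and NCAM1 at most 1 read, while YAP1 averaged 407 CPM in siCtrl (CPM, a gene's reads out of every 1000000 counted). SYP, another neuroendocrine marker, averaged 65.9 CPM with siSFPQ-2 and 37.4 with siSFPQ-3, against 17.2 in siCtrl, and NEUROD1 averaged 2.4 and 1.36, against 4.62 in siCtrl. Markers of the labelled tumour type were thus in part absent and in part present. The summed level of 10 markers of blood, endothelial, fibroblast, basal and alveolar cells ran from 24.6 to 34.6 CPM with siSFPQ-2 and 16.9 to 23.1 with siSFPQ-3, against 81.2 to 88.5 in siCtrl, and DCN stood at 0 throughout. TP63 (70.5 CPM) and COL1A1 (13.5 CPM) made up nearly all of that sum in siCtrl. TP63 averaged 10 CPM with siSFPQ-2 and 3.02 with siSFPQ-3, while COL1A1 averaged 16.8 and 14.2. LYZ (1.12 and 0.928 CPM, against 0.119 in siCtrl) and PECAM1 (0.511 and 1.33, against 0.192) averaged higher with both siRNAs. The lower sum thus reflects TP63, not all 10 markers. Total counts ran from 4243196 in siSFPQ-2 replicate 2 to 14886353. Mitochondrial genes took 9.7 to 11.6% of counts with siSFPQ-2 and 9.59 to 10.1% with siSFPQ-3, against 7.63 to 9.07% in siCtrl.

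Replicate 3 stood apart for these genes. By the median deviation of the 49 genes from their own group mean, it was the lowest in 8 of 8 groups. Its deviation lay between -0.357 (siSFPQ-2) and -0.064 (siSFPQ-3) on the log2 scale, while over all genes tested it stayed between -0.01 and 0.011. By the median log2 ratio to siCtrl, siSFPQ-3 replicate 2 lay just below replicate 3 (-0.599 and -0.595). In each replicate 3 library, 39 to 48 of the 49 genes lay below the group mean. Results are therefore given with replicate 3 left out of all groups, a comparison added after the data were seen. Replicates with the same number deviated together in most comparisons, but not for siSFPQ-3 against siCtrl (correlations 0.011, 0.016 and 0.191). Nor did they between the siSFPQ siRNAs or for SFPQ against NONO knockdown. Fits with the replicate number as a block are given beside the siNONO results. For comparisons with siSFPQ-3 they are given in the closing section.

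**Figure D1:**
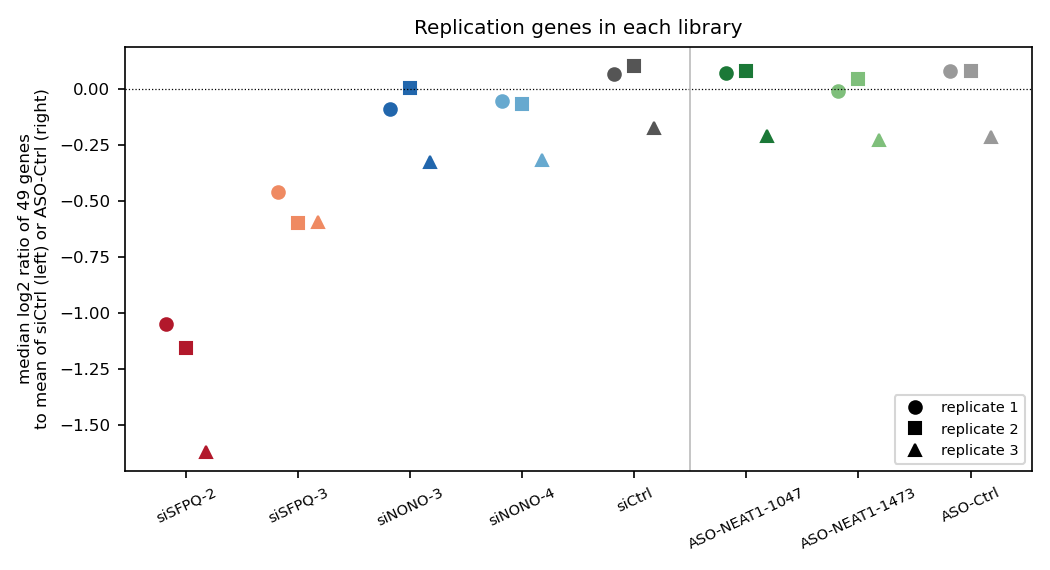
Each point is 1 library: the median, over the 49 replication genes, of the log2 ratio of its CPM to the mean of the control group (siCtrl left of the line, ASO-Ctrl right of it). The siSFPQ-2 and siSFPQ-3 libraries lie below every other library, and replicate 3 is the lowest of its group in all groups but siSFPQ-3, where it lies beside replicate 2.

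With siSFPQ-2, 46 of the 49 genes fell and 1 rose, where 32.4% of all genes tested fell and 32.4% rose. The median log2 fold change was -1.27, beside -0.005 over all genes tested. Falls of at least 2-fold were seen for 34 of the 49, and for 14.2% of all genes. With siSFPQ-3, 31 genes fell and 3 rose (33.3% and 33.7% of all genes), the median was -0.54 beside -0.015 over all genes, and 8 fell at least 2-fold (15.2% of all genes). Both comparisons share the siCtrl libraries. All 3 siSFPQ-2 libraries lay below all 3 siCtrl libraries for 46 genes, which held for 33.3% of all genes, and all 3 siSFPQ-3 libraries for 34 genes (35.0% of all genes). The 49 genes took 0.223, 0.218 and 0.147% of all reads with siSFPQ-2 and 0.320, 0.302 and 0.291% with siSFPQ-3, against 0.512, 0.515 and 0.437% in siCtrl. The groups did not overlap, and the siSFPQ-3 libraries lay between the others. With replicate 3 left out of all groups, 46 genes fell with siSFPQ-2 (median -1.19) and 37 with siSFPQ-3 (median -0.66). Shares of all genes in that fit are not given here, so the shift from 31 to 37 is not read as particular to these genes. In bulk RNA, fewer cells in S phase and less RNA per cell cannot be told apart.

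**Figure D2:**
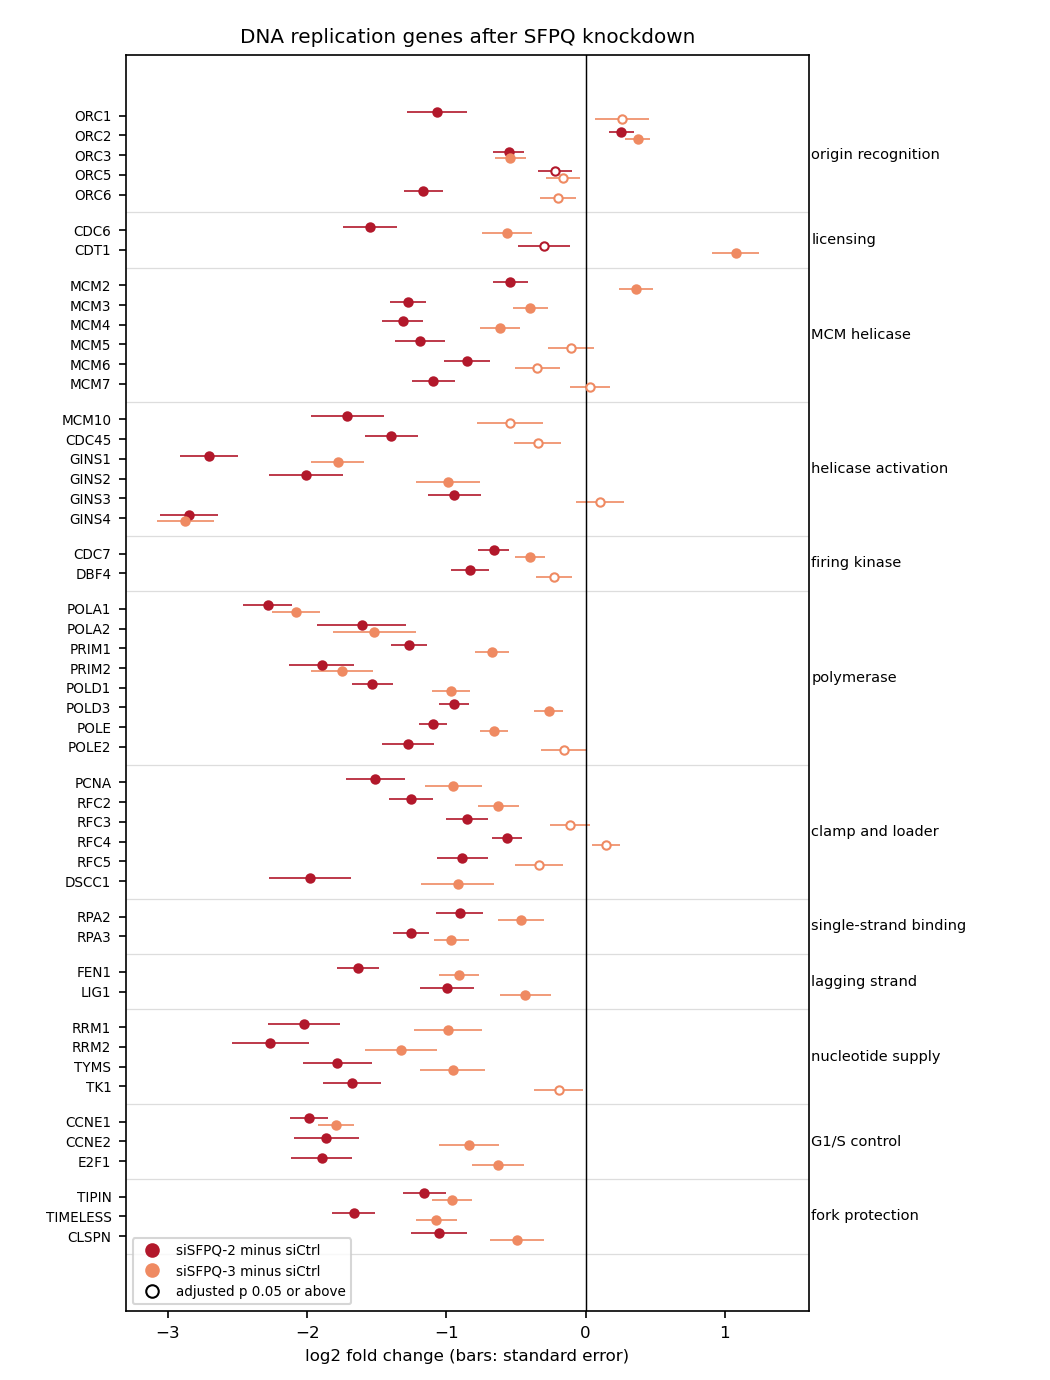
Log2 fold change against siCtrl of the 49 replication genes, by role, with siSFPQ-2 (dark) and siSFPQ-3 (light); bars are standard errors, and open symbols mark an adjusted p of 0.05 or above. Nearly all dark points lie left of 0, and CDT1 and MCM2 lie to the right of 0 with siSFPQ-3.

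Fewer of the 49 genes were called with the other reagents. With siNONO-3, 4 genes fell and 0 rose (10.9% and 9.02% of all genes), and the median was -0.101 beside 0.001 over all genes (-0.215 without siCtrl replicate 3 and -0.034 without siNONO-3 replicate 3). With siNONO-4 no gene was called by edgeR in either direction (5.94% of all genes fell and 5.1% rose). An unadjusted edgeR p under 0.05 was found for 4 of the 49, and for 3911 of all 15869 genes tested. The median was -0.154 beside 0 over all genes (-0.22 without siCtrl replicate 3 and -0.078 without siNONO-4 replicate 3). With the replicate block, 14 genes fell with siNONO-3 and 8 with siNONO-4, where 15.3% and 10.7% of all genes did. In the libraries labelled ASO-NEAT1 no gene of the 49 was called with either ASO, as for all genes tested (0% in each direction).

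**Figure D3:**
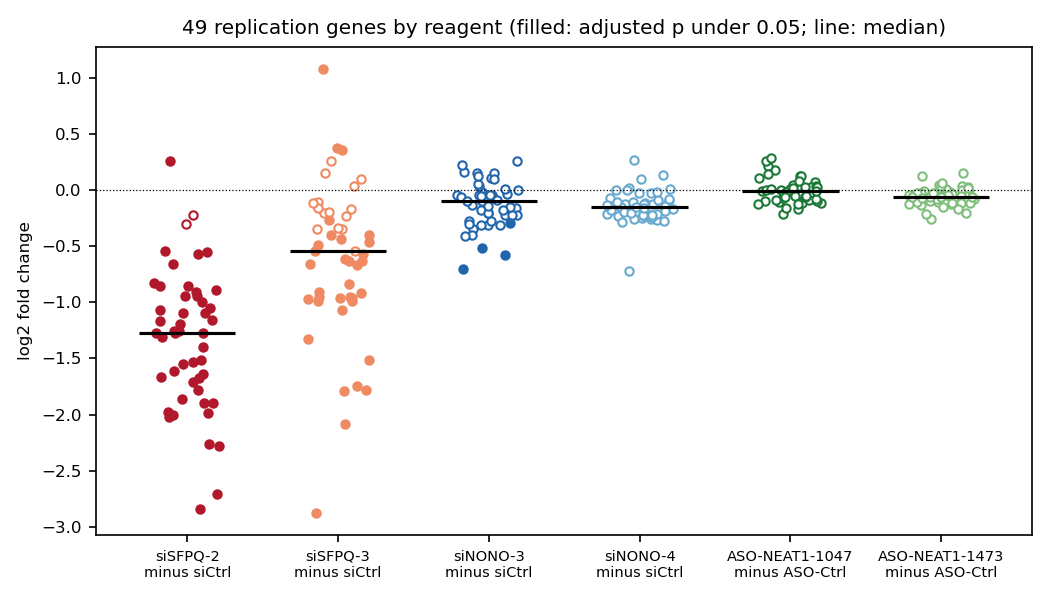
Each point is 1 of the 49 replication genes, as its log2 fold change for a reagent against the control of its arm; filled points passed an adjusted p of 0.05, and lines are medians. The lowest points are -2.85 with siSFPQ-2 and -2.88 with siSFPQ-3, and without the replicate block no gene is called with siNONO-4 and either ASO.

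Promoters of 41 of the 49 genes were found in a RefSeq table (GRCh38.p14) of 300-base windows, from 250 bases before the transcription start to 50 after it. A core E2F site (TTTCCCGC, TTTGGCGC, TTTCGCGC or TTTGCCGC, on either strand) stood in 20 of the 41, or 48.8%, against 5.39% of the promoters of genes tested and 3.33% of all 27305 in the table. CCAAT boxes (CCAAT, either strand) were in 56.1% of the 41, against 37.3% and 35.7%. GC boxes (GGGCGG, either strand) were in 70.7% of the 41, against 68.8% and 44.6%, and CHR elements (TTTGAA, either strand) in 4.88%, against 10.5% and 15.4%. A TTTCCCGC or TTTGCCGC followed by CC shares bases with a GC box on the other strand. The 20 genes with a site had a median log2 fold change of -1.18 for siSFPQ-2 and -0.52 for siSFPQ-3, and the 21 without one had -1.27 and -0.54, so the medians were alike with and without these letters.

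Shown here are the windows of the genes at both ends of the response to siSFPQ-2, among the 41 with a window, with the E2F match in capitals: GINS1 (chr20:25407423-25407722, plus strand) and POLA1 (chrX:24693668-24693967, plus strand), which fell most of these 41, and ORC5 (chr7:104207964-104208263, minus strand) and ORC2 (chr2:200963611-200963910, minus strand), which were not called lower. The match of GINS1 begins at position 6 and that of POLA1 at position -137, counted from the start as position 1, both as the reverse complement of TTTGGCGC. ORC5 and ORC2 hold none of the 4 E2F spellings, and ORC5 none of the other motifs searched.
GINS1: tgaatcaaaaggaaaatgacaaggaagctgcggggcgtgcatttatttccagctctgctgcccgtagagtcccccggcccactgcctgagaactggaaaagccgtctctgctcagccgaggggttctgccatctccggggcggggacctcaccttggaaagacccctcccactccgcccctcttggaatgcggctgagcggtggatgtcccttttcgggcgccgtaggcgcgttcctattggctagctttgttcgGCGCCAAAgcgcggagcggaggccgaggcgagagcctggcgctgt
POLA1: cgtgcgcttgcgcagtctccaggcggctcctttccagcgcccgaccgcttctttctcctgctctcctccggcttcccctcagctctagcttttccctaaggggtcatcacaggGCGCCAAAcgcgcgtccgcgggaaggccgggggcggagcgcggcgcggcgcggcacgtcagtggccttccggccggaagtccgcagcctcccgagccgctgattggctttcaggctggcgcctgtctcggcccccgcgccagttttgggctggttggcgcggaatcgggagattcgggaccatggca
ORC5: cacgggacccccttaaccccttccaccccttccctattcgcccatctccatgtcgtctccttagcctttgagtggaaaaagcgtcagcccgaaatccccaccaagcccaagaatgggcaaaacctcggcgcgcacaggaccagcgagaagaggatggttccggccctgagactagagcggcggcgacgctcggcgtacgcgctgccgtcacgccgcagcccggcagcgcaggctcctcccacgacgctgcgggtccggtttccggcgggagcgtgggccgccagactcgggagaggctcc
ORC2: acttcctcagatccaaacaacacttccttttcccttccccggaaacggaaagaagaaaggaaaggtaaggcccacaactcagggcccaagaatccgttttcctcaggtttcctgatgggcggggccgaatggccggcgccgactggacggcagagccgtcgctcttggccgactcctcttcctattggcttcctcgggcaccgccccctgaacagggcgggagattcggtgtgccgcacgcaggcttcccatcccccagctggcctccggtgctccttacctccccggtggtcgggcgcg

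Origin recognition and licensing genes were the most mixed. Of the 5 ORC subunits among the 49 genes, 3 fell and 1 rose with siSFPQ-2 (median -0.55), and 1 fell and 1 rose with siSFPQ-3 (median -0.17). ORC4, a further subunit, is on the second list of genes given below. It had 100, 136 and 129 CPM with siSFPQ-2 and 106, 103 and 114 CPM with siSFPQ-3, against 63.7, 78.4 and 64.0 CPM in siCtrl. Every ORC4 value of both siRNAs lay above siCtrl. ORC1, the subunit whose level varies with the cell cycle, had 24.04, 26.5 and 17 CPM with siSFPQ-2 and 60.4, 50.8 and 54.5 CPM with siSFPQ-3, against 49.2, 54.0 and 35.5 CPM in siCtrl. Its siSFPQ-2 libraries lay below all others, while siSFPQ-3 and siCtrl overlapped. ORC1 fell by 1.06 on the log2 scale with siSFPQ-2 (SE 0.21, adjusted p = 0.000197) and had a log2 fold change of 0.26 with siSFPQ-3 (SE 0.20, adjusted p = 0.244). ORC2, a core subunit, stood at 122, 146 and 117 CPM with siSFPQ-2 and 139, 135 and 141 CPM with siSFPQ-3, against 101, 122 and 97.5 CPM in siCtrl. All siSFPQ-3 libraries exceeded siCtrl, and the siSFPQ-2 libraries overlapped it. ORC2 rose by 0.37 with siSFPQ-3 (SE 0.09, adjusted p = 0.000702) and by 0.26 with siSFPQ-2 (SE 0.09, adjusted p = 0.0157). The siSFPQ-2 call was lost without siSFPQ-2 replicate 2 (0.16, adjusted p = 0.14), without the siCtrl libraries 1 (0.22, adjusted p = 0.0707) and 3 (0.19, adjusted p = 0.0927) in turn, and with replicate 3 left out of all groups (0.24, adjusted p = 0.0613).

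ORC5, another core subunit, was the single member called with neither siRNA, at 22.9, 25.1 and 20.4 CPM with siSFPQ-2 and 25.8, 21.97 and 22.4 CPM with siSFPQ-3, against 26.9, 27.8 and 24.1 CPM in siCtrl. These groups overlapped, and the 95% intervals of its log2 fold change ran from -0.475 to 0.036 with siSFPQ-2 and -0.414 to 0.084 with siSFPQ-3. ORC3, also a core subunit, fell with both siRNAs, by 0.55 and 0.54 (adjusted p = 9.39e-05 and 9.4e-05), and ORC6, the smallest subunit, fell by 1.17 with siSFPQ-2 (adjusted p = 4.67e-08). The licensing factors went apart. CDC6, which recruits the helicase to ORC, fell with both siRNAs, by 1.546 and 0.57 (adjusted p = 7.21e-07 and 0.00927). CDT1, which delivers the helicase and is destroyed in S phase, had 12.5, 7.69 and 10.3 CPM with siSFPQ-2 and 27.1, 21.97 and 32.3 CPM with siSFPQ-3, against 14.7, 12.4 and 11.6 CPM in siCtrl. Its siSFPQ-3 libraries lay above all others. CDT1 rose by 1.077 with siSFPQ-3 (SE 0.17, adjusted p = 2.93e-06) and had a log2 fold change of -0.30 with siSFPQ-2 (SE 0.19, adjusted p = 0.16).

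The 6 subunits of the MCM helicase all fell with siSFPQ-2 (median -1.14, range -1.31 to -0.54), led by MCM4 and MCM3. With siSFPQ-3 the same ring split. MCM3 and MCM4 fell by 0.40 and 0.61, MCM2 rose, and the log2 fold changes of MCM5, MCM6 and MCM7 were -0.11, -0.35 and 0.03 (adjusted p = 0.58, 0.063 and 0.851). MCM2 had 51.2, 46.4 and 44.7 CPM with siSFPQ-2 and 95.8, 75.7 and 94.3 CPM with siSFPQ-3, against 68.0, 75.9 and 63.5 CPM in siCtrl. The siSFPQ-2 libraries lay below siCtrl, and 1 siSFPQ-3 library fell within its range. MCM2 fell by 0.54 with siSFPQ-2 (SE 0.13, adjusted p = 0.000466) and rose by 0.36 with siSFPQ-3 (SE 0.12, adjusted p = 0.00963). That rise was lost without siCtrl replicate 3 (0.30, adjusted p = 0.0512), without siSFPQ-3 replicate 1 (0.30, adjusted p = 0.0526) and with replicate 3 left out of all groups (0.23, adjusted p = 0.0871).

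The largest single falls with siSFPQ-2 were those of GINS4 and GINS1, both among the 6 genes that activate the helicase. GINS4 also fell most with siSFPQ-3. All 6 of these genes fell with siSFPQ-2 (median -1.86) and 3 with siSFPQ-3 (median -0.77). By median this class did not fall most, since the nucleotide supply genes had -1.90 and -0.97. GINS4, a subunit of the GINS complex, had 35.4, 52.3 and 21.9 CPM with siSFPQ-2 and 41.0, 30.2 and 31.4 CPM with siSFPQ-3, against 232, 255 and 267 CPM in siCtrl. Every library of both siRNAs lay far below siCtrl, and both siRNA groups overlapped each other. GINS4 fell by 2.85 with siSFPQ-2 (SE 0.21, adjusted p = 4.57e-10) and by 2.88 with siSFPQ-3 (SE 0.20, adjusted p = 2.4e-10), to 0.139 and 0.136 of the siCtrl level. An exon of GINS4 overlaps the antisense gene GPAT4-AS1, and the strand setting of the counting is not given in the sources used here, so its reads cannot be told apart from those of that gene.

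GINS1, another subunit, had 17.01, 17.1 and 7.97 CPM with siSFPQ-2 and 27.4, 25.8 and 23.3 CPM with siSFPQ-3, against 95.6, 91.5 and 76.0 CPM in siCtrl. The 3 groups did not overlap, with siSFPQ-2 lowest. GINS1 fell by 2.704 with siSFPQ-2 (SE 0.21, adjusted p = 4.51e-10) and by 1.78 with siSFPQ-3 (SE 0.19, adjusted p = 4.74e-08). GINS2 fell with both siRNAs, by 2.01 and 0.99 (adjusted p = 8.52e-07 and 0.00071). GINS3, the remaining subunit, had 10.7, 9.43 and 5.67 CPM with siSFPQ-2 and 17.5, 18.7 and 15.9 CPM with siSFPQ-3, against 15.5, 18.2 and 15.01 CPM in siCtrl. Only with siSFPQ-2 were its libraries below siCtrl. GINS3 fell by 0.94 with siSFPQ-2 (SE 0.19, adjusted p = 0.000102) and had a log2 fold change of 0.10 with siSFPQ-3 (SE 0.17, adjusted p = 0.61). The subunits of this 4-protein complex thus had log2 fold changes from -2.88 to 0.10 with siSFPQ-3. MCM10 and CDC45, which join the helicase as it fires, fell by 1.71 and 1.39 with siSFPQ-2 and stood at -0.54 and -0.34 on the log2 scale with siSFPQ-3 (adjusted p = 0.0527 and 0.0737). Of the firing kinase, the catalytic CDC7 fell with both siRNAs, by 0.66 and 0.40, and its activator DBF4 fell by 0.83 with siSFPQ-2 (adjusted p = 8.46e-06, 0.00209 and 1e-05).

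**Figure D4:**
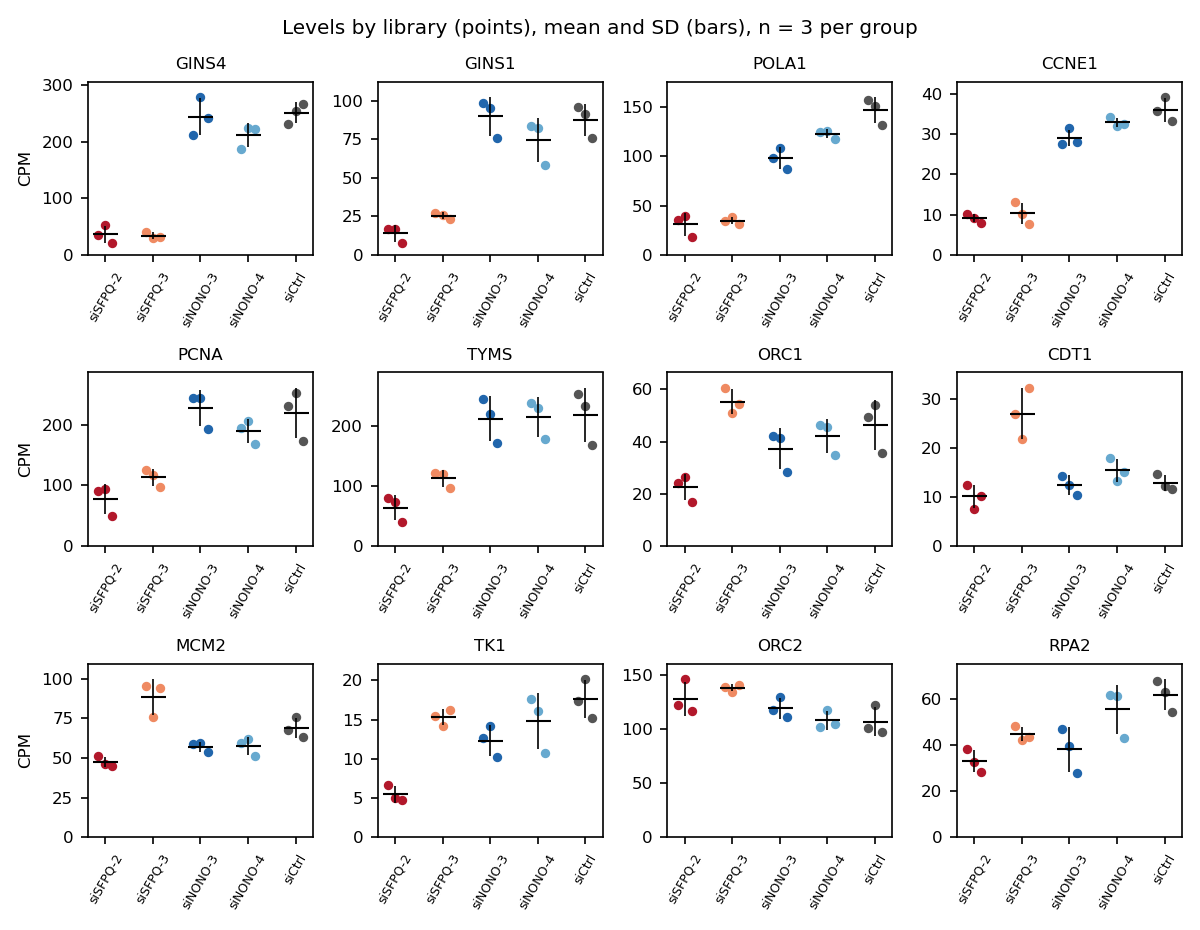
CPM of 12 replication genes in the siRNA libraries, from siSFPQ-2 on the left to siCtrl on the right; points are libraries, and bars are the mean and SD of 3. GINS4, POLA1 and CCNE1 are similarly low with both siSFPQ siRNAs, while TK1, ORC1 and MCM2 are low with siSFPQ-2 and CDT1 is high with siSFPQ-3.

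All 8 polymerase and primase genes fell with siSFPQ-2 (median -1.40) and 7 with siSFPQ-3 (median -0.82). The 4 genes of polymerase alpha-primase, which makes the primers, all fell with both. POLA1, its catalytic subunit, had 35.6, 39.9 and 17.9 CPM with siSFPQ-2 and 34.6, 38.1 and 31.1 CPM with siSFPQ-3, against 156, 151 and 132 CPM in siCtrl. Both siRNA groups overlapped each other, well below siCtrl. POLA1 fell by 2.28 with siSFPQ-2 (SE 0.18, adjusted p = 3.41e-10) and by 2.08 with siSFPQ-3 (SE 0.17, adjusted p = 6.88e-10). PRIM2, the large primase subunit, had 8.06, 8.68 and 5.77 CPM with siSFPQ-2 and 8.23, 9.08 and 6.87 CPM with siSFPQ-3, against 30.7, 28.9 and 22 CPM in siCtrl. It too was low in every library of both siRNAs, and it fell by 1.90 with siSFPQ-2 (SE 0.23, adjusted p = 1.9e-07) and by 1.75 with siSFPQ-3 (SE 0.22, adjusted p = 2.73e-07). POLA1 and PRIM2 are the only members that span over 300 kb (303.1 and 332.0 kb). The 539 genes tested of that span had median log2 fold changes of -0.76 with siSFPQ-2 and -1.05 with siSFPQ-3, and the part of gene length in the falls of POLA1 and PRIM2 was not tested.

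POLA2, the regulatory subunit and the member with the lowest level per kb of exon, had 2.17, 0.992 and 0.839 CPM with siSFPQ-2 and 1.43, 1.35 and 1.57 CPM with siSFPQ-3, against 4.38, 3.37 and 4.66 CPM in siCtrl. Both siRNA groups lay below siCtrl, and POLA2 fell by 1.61 and 1.52 (SE 0.32 and 0.30, adjusted p = 7.51e-05 and 7.4e-05), from libraries with as few as 4 reads of the gene with siSFPQ-2. PRIM1, the catalytic primase subunit, fell by 1.27 and 0.67. Polymerase delta and epsilon genes fell less with siSFPQ-3: POLD1 by 0.97, POLE by 0.66 and POLD3 by 0.26, while POLE2 had a log2 fold change of -0.16 (adjusted p = 0.408). With siSFPQ-2 the same genes fell by 1.53, 1.09, 0.95 and 1.28.

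All 6 clamp and clamp loader genes among the 49 fell with siSFPQ-2 (median -1.07) and 3 with siSFPQ-3 (median -0.48). RFC1, a further clamp loader subunit, is on the second list of genes given below. It had 183, 168 and 180 CPM with siSFPQ-2, overlapping siCtrl (209, 218 and 177 CPM). With siSFPQ-3 its libraries lay above siCtrl, at 252, 235 and 235 CPM. PCNA, the sliding clamp and the member with the highest level per kb of exon in siCtrl, had 89.9, 93.8 and 49.3 CPM with siSFPQ-2 and 125, 116 and 97.1 CPM with siSFPQ-3, against 230, 252 and 172 CPM in siCtrl. The 3 groups did not overlap. PCNA fell by 1.51 with siSFPQ-2 (SE 0.21, adjusted p = 4.68e-06) and by 0.95 with siSFPQ-3 (SE 0.20, adjusted p = 0.000447). Of the clamp loader, RFC2 fell with both siRNAs, by 1.25 and 0.63, whereas RFC3, RFC4 and RFC5 fell with siSFPQ-2 and had log2 fold changes of -0.11, 0.15 and -0.34 with siSFPQ-3 (adjusted p = 0.511, 0.197 and 0.096). DSCC1, part of the alternative loader used in cohesion, fell by 1.98 and 0.92. The single-strand binding subunits RPA2 and RPA3 fell with both siRNAs, by 0.91 and 1.26 with siSFPQ-2 and by 0.47 and 0.97 with siSFPQ-3. FEN1, the flap nuclease, and LIG1, the ligase, which finish the lagging strand, fell by 1.64 and 0.99 with siSFPQ-2 and by 0.91 and 0.43 with siSFPQ-3.

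The 4 nucleotide supply genes all fell with siSFPQ-2 (median -1.90) and 3 with siSFPQ-3 (median -0.97). RRM1 and RRM2, the subunits of ribonucleotide reductase, fell by 2.02 and 2.26 with siSFPQ-2 and by 0.99 and 1.33 with siSFPQ-3. TYMS, the thymidylate synthase and the member with the next highest level per kb after PCNA, had 80.2, 72.9 and 40.0 CPM with siSFPQ-2 and 122, 120 and 96.1 CPM with siSFPQ-3, against 254, 234 and 169 CPM in siCtrl. The 3 groups did not overlap. TYMS fell by 1.78 and 0.95 (SE 0.25 and 0.23, adjusted p = 5.14e-06 and 0.00159). Its exons overlap those of ENOSF1 on the other strand. TK1, the thymidine salvage kinase, had 6.65, 4.96 and 4.72 CPM with siSFPQ-2 and 15.5, 14.2 and 16.3 CPM with siSFPQ-3, against 17.4, 20.1 and 15.2 CPM in siCtrl. Its siSFPQ-2 libraries stood alone at the bottom, and siSFPQ-3 overlapped siCtrl. TK1 fell by 1.68 with siSFPQ-2 (SE 0.21, adjusted p = 6.31e-08) and had a log2 fold change of -0.19 with siSFPQ-3 (SE 0.18, adjusted p = 0.34).

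The genes of G1/S control fell with both siRNAs. CCNE1, a cyclin E that activates CDK2, had 10.1, 9.18 and 8.08 CPM with siSFPQ-2 and 13.1, 10.2 and 7.83 CPM with siSFPQ-3, against 35.7, 39.2 and 33.4 CPM in siCtrl. Both siRNA groups overlapped far below siCtrl, and CCNE1 fell by 1.99 and 1.79 (SE 0.14 and 0.13, adjusted p = 1.08e-12 and 2.47e-12). CCNE2, its paralog, fell by 1.86 and 0.84, and E2F1, an activating E2F factor, by 1.90 and 0.63. Fork protection genes followed, with TIMELESS, TIPIN and the checkpoint mediator CLSPN falling by 1.67, 1.16 and 1.05 with siSFPQ-2 and by 1.07, 0.96 and 0.49 with siSFPQ-3.

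The siRNAs against SFPQ were then compared with each other. SFPQ RNA differed by -0.106 between them (siSFPQ-2 minus siSFPQ-3, 95% interval -0.333 to 0.121). Of the 49 genes, 33 were lower with siSFPQ-2 and 0 higher, where 8.61% of all genes tested were lower and 6.06% higher, and the median difference was -0.70 beside 0.012 over all genes. The difference was at least 2-fold for 14 of them, and for 1.41% of all genes. With siSFPQ-2 replicate 3 left out the count was 23, and with replicate 3 left out of all groups it was 33. Over all genes, calls in either direction went from 2328 to 1546 and 1416 in these fits. Of the 31 genes that fell with both siRNAs, 18 fell further with siSFPQ-2. Of the 14 that fell with siSFPQ-2 and were not called with siSFPQ-3, the difference passed the test for 13, all but RFC5 (difference -0.55, adjusted p = 0.0508). The differences were largest for TK1 (-1.48, adjusted p = 1.39e-05), CDT1 (-1.377, adjusted p = 4.6e-06), ORC1 (-1.33, adjusted p = 0.000218) and E2F1 (-1.27, adjusted p = 0.000367). All 6 MCM genes and all 4 nucleotide supply genes were lower with siSFPQ-2 than with siSFPQ-3.

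A further 13 genes fell with both siRNAs and did not differ between them beyond the threshold: ORC3, GINS4, CDC7, POLA1, POLA2, PRIM2, PCNA, RPA2, RPA3, LIG1, CCNE1, TIPIN and CLSPN. Their intervals were not equally narrow. The difference ran from -0.425 to 0.486 for GINS4, -0.589 to 0.186 for POLA1, -0.512 to 0.122 for CCNE1, -0.696 to 0.402 for PRIM2 and -0.885 to 0.699 for POLA2, whereas for PCNA it ran from -1.006 to -0.115 (adjusted p = 0.0876). Total counts were 7899220, 4243196 and 9747514 with siSFPQ-2 and 8846636, 8483440 and 8543946 with siSFPQ-3, and the mitochondrial shares given above overlapped. The part of depth or RNA quality in these differences was not tested.

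**Figure D5:**
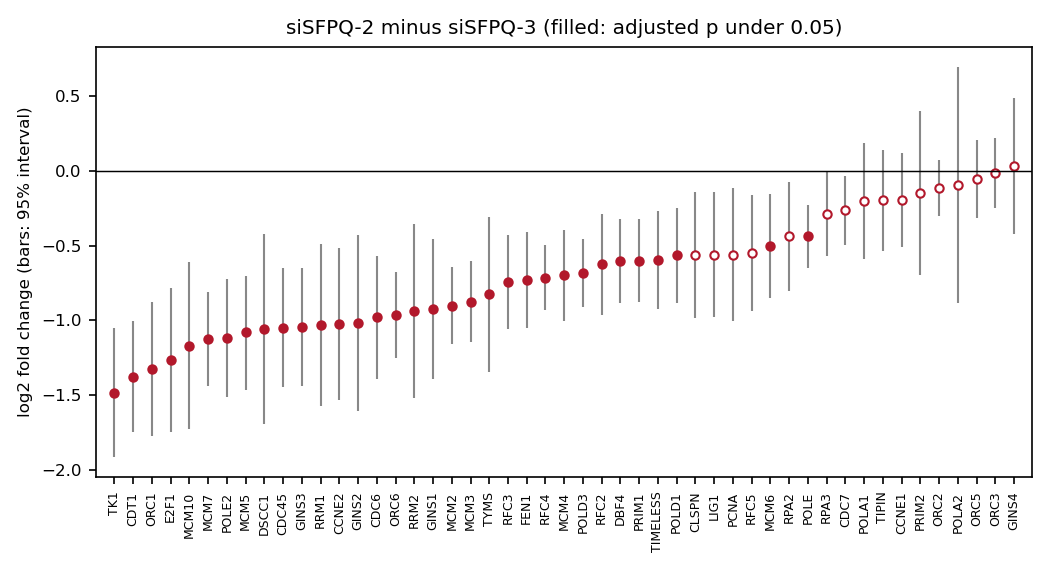
Difference between the siRNAs against SFPQ (siSFPQ-2 minus siSFPQ-3, log2 scale) for each of the 49 replication genes, sorted, with 95% intervals; filled points passed an adjusted p of 0.05. Points run from -1.48 (TK1) to 0.03 (GINS4), and 48 of 49 lie below 0.

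Without the replicate block, 4 of the 49 genes fell with siNONO-3 and 0 with siNONO-4, where 10.9% and 5.94% of all genes fell. The 4 that fell with siNONO-3 were RPA2, POLA1, TK1 and POLD3. RPA2, a subunit of the single-strand binding protein, had 47.1, 39.7 and 27.8 CPM with siNONO-3 and 61.8, 61.7 and 43.4 CPM with siNONO-4, against 68.1, 63.3 and 54.7 CPM in siCtrl. Its siNONO-3 libraries lay below siCtrl, and the siNONO-4 libraries overlapped siCtrl. RPA2 fell by 0.70 with siNONO-3 (SE 0.16, adjusted p = 0.00386) and had a log2 fold change of -0.16 with siNONO-4 (SE 0.16, adjusted p = 0.605). POLA1 had 97.9, 109 and 86.8 CPM with siNONO-3 and 125, 125 and 117 CPM with siNONO-4, against 156, 151 and 132 CPM in siCtrl, so that neither siRNA group overlapped siCtrl. POLA1 fell by 0.58 with siNONO-3 (SE 0.16, adjusted p = 0.0119) and had a log2 fold change of -0.26 with siNONO-4 (SE 0.16, adjusted p = 0.329).

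TK1 had 12.6, 14.1 and 10.2 CPM with siNONO-3 and 17.6, 16.1 and 10.8 CPM with siNONO-4, against 17.4, 20.1 and 15.2 CPM in siCtrl, and only the siNONO-3 libraries lay below siCtrl. TK1 fell by 0.51 with siNONO-3 (SE 0.18, adjusted p = 0.039) and POLD3, a subunit of polymerase delta, by 0.29 (SE 0.10, adjusted p = 0.0483). The TK1 call was lost with replicate 3 left out of all groups (-0.49, adjusted p = 0.0604) and without siCtrl replicate 1 or 2 or siNONO-3 replicate 1 or 3 (adjusted p = 0.0843, 0.158, 0.0708 and 0.21). Without siCtrl replicate 1 or without siNONO-3 replicate 3, 1 of these genes was called, and without siCtrl replicate 2, 2 were. With the replicate block, which these groups' numbers allow, 14 genes fell with siNONO-3 and 8 with siNONO-4 (15.3% and 10.7% of all genes), and none rose (13.5% and 8.99% of all genes). Those with siNONO-3 were the same 4 with ORC1, MCM2, MCM3, MCM4, MCM6, CDC7, RFC2, CCNE1, TIMELESS and CLSPN. Those with siNONO-4 were MCM6, GINS1, CDC7, PRIM1, POLD3, RPA3, FEN1 and RRM2, all but RRM2 by less than 0.3 on the log2 scale.

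RRM2, the small subunit of ribonucleotide reductase, had 165, 159 and 122 CPM with siNONO-4 and 234, 261 and 193 CPM with siNONO-3, against 262, 276 and 201 CPM in siCtrl. All siNONO-4 libraries lay below siCtrl. Its log2 fold change was -0.72 with siNONO-4 (SE 0.25, adjusted p = 0.0779, and adjusted p = 0.00233 with the replicate block) and -0.10 with siNONO-3 (adjusted p = 0.825). It is named here after its values were seen. Within a replicate number, the median difference of the 49 genes was -0.126, -0.086 and -0.15 for siNONO-3 minus siCtrl and -0.108, -0.182 and -0.15 for siNONO-4 minus siCtrl. It was thus below 0 in each number, though small beside the falls with siSFPQ-2 (-1.09, -1.20 and -1.49) and siSFPQ-3 (-0.57, -0.68 and -0.44) in the same numbers. All these differences share the siCtrl libraries.

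The siRNAs against NONO differed for 2 of the 49 genes. RPA2 was lower with siNONO-3 than with siNONO-4 by 0.55 (a difference of -0.55, SE 0.17, adjusted p = 0.0377), and TIPIN, a fork protection gene, was higher by 0.48 (SE 0.14, adjusted p = 0.0214), where 5.31% of all genes were lower and 4.71% higher. TIPIN had 26.2, 24.7 and 23.4 CPM with siNONO-3 and 17.3, 19.8 and 16.1 CPM with siNONO-4, without overlap; siCtrl had 22.6, 21.3 and 18.4 CPM, below all siNONO-3 libraries and overlapping siNONO-4. The RPA2 call was lost without siNONO-3 replicate 2 or 3 or siNONO-4 replicate 1 or 2 (adjusted p = 0.0781, 0.199, 0.155 and 0.133), and the TIPIN call without siNONO-3 replicate 1 or 2 or siNONO-4 replicate 1 or 3 (adjusted p = 0.0757, 0.0634, 0.079 and 0.11). With replicate 3 left out of all groups the TIPIN call was also lost (0.45, adjusted p = 0.0698), as was the RPA2 call in a fit of only these groups (adjusted p = 0.167). With the replicate block 2 genes were lower (RPA2 and POLA1) and 5 higher (TIPIN, RRM2, GINS1, PCNA and RFC4), where 8.84% and 8.38% of all genes were.

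Set directly against each other, with both siRNAs of a target averaged, SFPQ knockdown was lower than NONO knockdown for 43 of the 49 genes and higher for 2, CDT1 and ORC2 (38.4% and 37% of all genes), with a median of -0.72 beside -0.026 over all genes. GINS4 differed by -2.72 (SE 0.15, adjusted p = 1.43e-12), GINS1 by -2.15 (SE 0.14, adjusted p = 1.29e-11) and PRIM2 by -1.82 (SE 0.16, adjusted p = 4.32e-10). GINS4 had 212, 278 and 243 CPM with siNONO-3 and 187, 225 and 222 CPM with siNONO-4, GINS1 had 98.5, 95.3 and 75.6 and then 83.8, 82.3 and 58.3 CPM, and PRIM2 had 33.2, 30.3 and 18.8 and then 29.4, 28.4 and 21.9 CPM. Each overlapped siCtrl, except GINS4 with siNONO-4, whose libraries lay just below it (log2 fold change -0.25, adjusted p = 0.43). ORC2 was higher by 0.23 (SE 0.06, adjusted p = 0.00256). CDT1 was called higher at the edge of the threshold (0.28, SE 0.13, adjusted p = 0.0498), from siRNAs that lay apart: it averaged 10.2 CPM with siSFPQ-2 and 27.1 with siSFPQ-3, against 12.5 with siNONO-3 and 15.5 with siNONO-4. The count of genes called higher was 1 with replicate 3 left out of all groups, and 1 without siSFPQ-2 replicate 1 or 3, siSFPQ-3 replicate 1 or 3, siNONO-3 replicate 2 or 3, or siNONO-4 replicate 2 or 3.

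In the libraries labelled ASO-NEAT1, log2 fold changes against ASO-Ctrl ran from -0.213 (PRIM1) to 0.284 (E2F1) with ASO-NEAT1-1047 and from -0.259 (ORC5) to 0.155 (E2F1) with ASO-NEAT1-1473. Unadjusted, 0 and 1 of the 49 genes had an edgeR p under 0.05, as did 365 and 424 of all genes. GINS4 had 229, 279 and 266 CPM in the libraries labelled ASO-NEAT1-1047 and 222, 274 and 264 CPM in those labelled ASO-NEAT1-1473, against 227, 281 and 267 CPM in ASO-Ctrl. For this gene the 3 groups lay close together within each replicate number. Over the 49 genes, no 95% interval reached below -0.639 or above 0.648, which bounds the size of a change in these libraries but not the effect of NEAT1 loss, since NEAT1 itself was not called. ASO-Ctrl and siCtrl did not differ for any of the 49 genes by edgeR (median -0.044, and 0.334% and 0.12% of all genes lower and higher). By the same test 0 of the 49 had an unadjusted p under 0.05, as did 1266 of all 15869 genes tested.

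A second list of 58 other replication genes was read in the same fits. It too was chosen with earlier results of these data known, so its counts are not independent of those above. With siSFPQ-2, 48 fell and 7 rose (median -0.94; 32.4% of all genes fell and 32.4% rose), and with siSFPQ-3 30 fell and 8 rose (median -0.44; 33.3% and 33.7% of all genes). With siNONO-3 4 fell and 3 rose, or 6.9% and 5.17% of the list, below the 10.9% and 9.02% of all genes. With siNONO-4 none fell and 3 rose (5.94% and 5.1% of all genes). CDC25A, the phosphatase that activates CDK2, fell by 2.31 with siSFPQ-2 (SE 0.22, adjusted p = 2.11e-08) and by 1.079 with siSFPQ-3 (SE 0.20, adjusted p = 8.46e-05). It had 31.7, 35.2 and 14.1 CPM with siSFPQ-2 and 67.7, 50.6 and 64.0 CPM with siSFPQ-3, against 136, 135 and 115 CPM in siCtrl. The nuclease EXO1 fell by 1.93 and 0.72, the thymidylate kinase DTYMK by 1.74 and 1.48, and the polymerase epsilon subunit POLE4 also fell with both (-1.24 and -1.381). RNASEH2A, a subunit of RNase H2, fell by 2.00 and 1.56 and had at most 0.384 CPM with siSFPQ-2 and 0.361 with siSFPQ-3, against at least 0.804 CPM in siCtrl. Both calls were lost with replicate 3 left out of all groups (adjusted p = 0.13 and 0.067). CDK2 and the topoisomerase TOP1 rose with siSFPQ-3 by 1.02 and 0.97, and with siSFPQ-2 by 0.55 and 0.61, and POLD4 rose by 1.02 with siSFPQ-2.

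CDKN1A, which encodes the CDK inhibitor p21, was higher with all 4 siRNAs than in siCtrl. It had 50.5, 49.4 and 60.2 CPM with siSFPQ-2, 43.0, 47.3 and 39.2 with siSFPQ-3, 59.0, 50.7 and 54.2 with siNONO-3 and 59.3, 42.9 and 52.3 with siNONO-4, against 14.6, 13.0 and 16.9 CPM in siCtrl. No library of the 4 groups overlapped siCtrl. CDKN1A rose by 1.85, 1.53, 1.87 and 1.79 on the log2 scale (adjusted p = 1.05e-10, 2.82e-09, 2.33e-09 and 1.35e-08), and SFPQ minus NONO knockdown was -0.14 (95% interval -0.353 to 0.069). RRM2B, the p53-inducible subunit of ribonucleotide reductase, likewise rose by 1.06, 0.83, 1.095 and 0.91. The genes that fell with siNONO-3 were led by TOP2A, a topoisomerase of dividing cells, at 744, 656 and 508 CPM, against 1072, 1067 and 879 CPM in siCtrl, a fall of 0.66 (SE 0.13, adjusted p = 0.000787). MYBL2, a cell cycle transcription factor, fell by 0.48 and DUT, the dUTPase, by 0.35 (adjusted p = 0.037 and 0.0466), while the repressor E2F7 rose by 0.65 (adjusted p = 0.0169); each of these calls was lost without some single libraries. MCM9 rose by 0.44 with siNONO-4 (adjusted p = 0.0239), also lost without single libraries.

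MCM7 is also the host gene of a microRNA cluster, with miR-106b, miR-93 and miR-25 in its introns. The mature sequences from RefSeq (GRCh38.p14, chromosome 7, minus strand) are shown with the seed, bases 2 to 8, in capitals, since microRNA precursors are what the study is about. The first pair share a seed.
hsa-miR-106b-5p: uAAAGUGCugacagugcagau
hsa-miR-93-5p: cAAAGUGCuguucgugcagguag
hsa-miR-25-3p: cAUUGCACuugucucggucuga

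MCM7 RNA had 83.0, 75.6 and 49.1 CPM with siSFPQ-2 and 158, 138 and 154 CPM with siSFPQ-3, against 147, 161 and 132 CPM in siCtrl. Its siSFPQ-2 libraries lay below siCtrl and its siSFPQ-3 libraries overlapped it, and the difference between the siRNAs was -1.13 (SE 0.15, adjusted p = 1.94e-05). The precursor genes MIR106B, MIR93 and MIR25 had 3, 4 and 17 reads over all 24 libraries, too few to compare. MCM7 exons overlap AP4M1 on the other strand. In all, exons of 22 of the 49 genes overlap another gene's, 6 on the same strand and 18 on the other, among them FEN1 with FADS2, PRIM1 with NACA and RFC4 with EIF4A2, and the values of these genes are uncertain to that extent.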

How the data were processed

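For each of the 24 libraries the authors deposited raw counts, as whole numbers, for 60605 Ensembl genes. Per the submitters' processing notes they used cutadapt 4.2, STAR 2.7.5a, featureCounts of Subread 2.0.3 and DESeq2 1.38.1 on hg38. Annotation release and strand setting: not given in the sources used here. From the counts, 1 fit of all libraries was made with edgeR 4.0.16 (limma 3.58.1, R 4.3.3): TMM factors (0.949 to 1.045), filter by group, robust quasi-likelihood test, Benjamini-Hochberg adjustment over 15869 genes, called at an adjusted p under 0.05. "Rose" and "fell" refer to called genes, changes are log2 fold changes, and CPM use TMM factors. SE is the log2 fold change over the root of F. No library pair was near-identical.

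Samples were grouped by their labels. Same-numbered replicates deviated together over all genes (every correlation over 0.1, 0.114 to 0.378) for siSFPQ-2, siNONO-3, siNONO-4 and ASO-Ctrl against siCtrl, both ASOs against ASO-Ctrl and siNONO-3 against siNONO-4, but not for siSFPQ-3 against siCtrl (0.011, 0.016 and 0.191) siSFPQ-2 against siSFPQ-3, or SFPQ against NONO knockdown. Genes named with values were the 3 largest called changes per comparison, members called against the trend or with neither siSFPQ siRNA, the 2 highest and 2 lowest per kb of exon, and up to 3 called genes each way of the second list. Other members are given by role. The members and lists were chosen with earlier results of these data known. Alternatives were DESeq2 1.42.0, RLE and upper quartile factors, no filter, only the groups compared, an adjusted p under 0.01, the replicate block and leaving out replicates. The method was also run on simulated counts drawn without any shared effect of replicate number. Those counts cannot show how such an effect alters the calls. Counting error alone limits genes with few reads.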

Additional observations from a re-analysis of the deposited data

Results flagged for a closer look

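The siRNAs against the same target were compared in a direct test. Between siSFPQ-2 and siSFPQ-3, 33 of the 49 genes passed an adjusted p under 0.05 by edgeR, all lower with siSFPQ-2, where 8.61% of all genes were lower and 6.06% higher. Between siNONO-3 and siNONO-4, 2 of the 49 passed, RPA2 lower and TIPIN higher (2.04% each). That is below the 5.31% of all genes that were lower and the 4.71% that were higher. Both calls were lost without some single libraries. With groups of 3 libraries, single libraries far from their group were not tested for.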

How the results depend on the processing

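The alternatives were followed for the counts, the medians and the genes named by the rules above, not for every gene change reported. Among these no result changed direction, apart from the medians of the 49 genes for the ASOs, the siNONO pair and the controls. Those took both signs: -0.101 to 0.07 for ASO-NEAT1-1047, -0.146 to 0.007 for ASO-NEAT1-1473, -0.08 to 0.079 for the siNONO pair and -0.15 to 0.024 for ASO-Ctrl minus siCtrl. The 46 falls with siSFPQ-2 stayed at 46 with each library left out, and the 31 with siSFPQ-3 ran from 27 to 33. At an adjusted p under 0.01, counts of all genes called were 1700 for siNONO-3, 797 for siNONO-4, 1242 between the siSFPQ siRNAs, 774 between the siNONO siRNAs and 28 for ASO-Ctrl minus siCtrl, against 3165, 1752, 2328, 1590 and 72; of the 49, 1 fell with siNONO-3, 0 rose with siSFPQ-2, 0 were lower and 0 higher between the siNONO siRNAs, and 1 was higher with SFPQ than NONO knockdown. With no filter, 0 rose with siSFPQ-2, 8 fell with siNONO-3, 2 were lower between the siNONO siRNAs, 1 was higher with SFPQ than NONO knockdown, and 2 genes were called for ASO-NEAT1-1473 and 153 for ASO-Ctrl minus siCtrl. In fits of only the groups compared, 0 rose with siSFPQ-2, 8 fell with siNONO-3 and 1 with siNONO-4, 3 were higher between the siNONO siRNAs, and 42 genes were called between controls. With replicate 3 left out of all groups, 0 rose with siSFPQ-2, the siSFPQ-3 median was -0.661, 8 fell with siNONO-3 and 2 with siNONO-4, 1 was higher with SFPQ than NONO knockdown, and 13, 14, 1416 and 904 genes were called for ASO-NEAT1-1047, ASO-NEAT1-1473, the siSFPQ pair and the siNONO pair. With the replicate block, 14 of the 49 fell with siNONO-3 and 8 with siNONO-4 (15.3% and 10.7% of all genes). Between the siNONO siRNAs 2 were lower and 5 higher (8.84% and 8.38% of all genes). Genes called were 3118, 2733 and 351 for siNONO-4, the siNONO pair and the controls. With siSFPQ-3, whose numbers are not paired, 37 fell and 4 rose (35.3% and 35.5% of all genes). The genes added there were ORC6, MCM6, MCM10, CDC45, DBF4 and RFC5 lower and ORC1 higher. Between the siSFPQ siRNAs 39 were lower and 0 higher (12.3% and 9.19% of all genes). For SFPQ against NONO knockdown 45 were lower and 3 higher (39.6% and 38.2% of all genes), adding ORC1 and RPA2 lower and MCM2 higher. The block ended no call of the 49 genes and added none with siSFPQ-2, with the ASOs or between controls. DESeq2 called 132 genes between controls, and upper quartile factors left 1 gene higher with SFPQ than NONO knockdown. The causes of these shifts were not tested, and shares of all genes are given only for the main fit and the replicate block.

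Leaving out each library gave 23 to 34 lower between the siSFPQ siRNAs, 1 to 4 falls and 0 to 1 rises with siNONO-3, 0 to 1 rises with siSFPQ-2, 0 to 1 lower and 0 to 1 higher between the siNONO siRNAs, and 43 to 45 lower and 1 to 3 higher with SFPQ than NONO knockdown. Genes called ran from 1983 to 2853 for siNONO-3, 942 to 1583 for siNONO-4, 1546 to 2173 and 969 to 1387 for the siSFPQ and siNONO pairs, 0 to 13 and 0 to 17 for ASO-NEAT1-1047 and ASO-NEAT1-1473, and 23 to 63 between controls. Low depth limits genes such as POLA2, POLD4 and RNASEH2A.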
